A study of Homo sapiens with 6 samples.

Results

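The MYC, MAX and MXD network was examined as 9 genes, MYC, MAX, MXD1, MXD3, MXD4, MXI1, MNT, MGA and MLX, which were chosen by symbol from the 50229 symbols of the deposited gene table. Each of the 9 symbols had 1 row, and all 9 passed the filter of at least 0.5 FPKM in at least 3 libraries that left 13748 genes for the test. FPKM scales fragments to a gene's length and to library size. The length used for each gene is not stated, so orders, shares and ratios of level between genes are approximate. All 6 libraries were labelled as Hep3B, an established human hepatocellular carcinoma line, and the marker levels given below go against that label, so the identity of the cells is in question. The siEIF4G2 group is 3 libraries of cells given EIF4G2-targeting small interfering RNA at 50 nM, and the siNC group is 3 libraries of cells given the control duplex at the same dose. Neither the time after transfection nor the number of duplex sequences is stated in the labels. Nothing in the labels ties each replicate to its own culture, and the p-values therefore reflect library-to-library spread that could be technical.

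The proteins of this network are basic helix-loop-helix leucine zipper factors that bind DNA as pairs at the E-box, whose core letters are CACGTG. MAX is the common partner. MYC paired with MAX raises transcription of genes for ribosome assembly, nucleotide and polyamine synthesis and cell division, whereas the MXD proteins, MXI1 and MNT, also paired with MAX, recruit the SIN3 and histone deacetylase corepressor to the same sites. MGA joins MAX to a polycomb complex called PRC1.6, and MLX is a MAX-like partner for the glucose-sensing factors MondoA (gene MLXIP) and ChREBP (gene MLXIPL). EIF4G2 is a translation initiation factor, and MYC messenger RNA is among those long discussed as being translated without the cap-binding complex. The measurements here are of RNA levels and do not show translation or protein.

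Total counts lay between 63351653 and 72863628 per library. EIF4G2 itself read 17.9, 17.6 and 20.05 FPKM in siEIF4G2 replicates 1, 2 and 3 and 107, 89.4 and 97.8 FPKM in siNC replicates 1, 2 and 3, a log2 fold change of -2.43 with SE 0.088 (edgeR adjusted p = 0.000207). Of 11 hepatocyte markers, 7 were listed at 0 counts in all 6 libraries, ALB and AFP among them, and none reached a mean of 0.5 FPKM. Of 5 epithelial markers, the keratins KRT8 and KRT18 read 168 to 193 and 171 to 197 FPKM, while KRT19 and CDH1 stayed at or under 0.291 and 0.0597 FPKM and EPCAM at or under 0.018 FPKM. Of 6 fibroblast markers, 5 were tested, among them LUM at 28.04 to 46.5 FPKM and COL3A1 at 31.8 to 45.1 FPKM, while COL1A2 stayed at or under 0.127 FPKM. Of those 5, COL3A1, DCN and LUM rose, while COL1A1 and PDGFRB fell, 1.35-fold and 2.29-fold (edgeR adjusted p = 0.0083 and 0.00302). The summed level of the list, mostly LUM and COL3A1, was 99.4 to 101 FPKM in siEIF4G2 and 77.0 to 85.2 FPKM in siNC. Of 4 endothelial markers only CDH5 was tested, 3.01-fold lower after silencing, and of 5 leukocyte markers only CD68, 1.55-fold lower (edgeR adjusted p = 0.000756 and 0.0111), with PTPRC and CD3E at 0. CDH5 read 0.386 to 0.506 FPKM in siEIF4G2 and 1.23 to 1.34 FPKM in siNC, and so met the filter through the group where it was high. What these marker levels contribute to the results on the network was not tested. In bulk RNA, fewer cells of a type and less RNA per cell cannot be told apart.

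Promoter sequence was available for 8 of the 9 members in the RefSeq table (GRCh38.p14), which gives 250 bases before and 50 bases after each annotated start; MYC was not among them. The E-box letters CACGTG, which read the same on both strands, were found in windows of 3 members, MXD4, MNT and MLX, and not in those of MAX, MXD1, MXD3, MXI1 or MGA. That is 37.5% of the 8 genes, several of which have more than 1 window, beside 12.9% of the 9375 tested genes matched. Of all 35116 windows of this length, 7.26% hold these letters. The stretches around the match are shown because this is the site that every MAX-containing pair of the network can bind, and the same is shown for ODC1, HSPD1, UNG and PRMT3, the 4 genes with the smallest p among those of a list of MYC-activated genes that were higher after silencing and hold the letters before the start. Capitals mark the E-box, and each line reads 5′ to 3′ on the strand of the gene.
MXD4 (chr4:2262295-2262359, minus strand): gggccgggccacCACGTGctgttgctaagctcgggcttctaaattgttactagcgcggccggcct
MNT (chr17:2401201-2401300, minus strand): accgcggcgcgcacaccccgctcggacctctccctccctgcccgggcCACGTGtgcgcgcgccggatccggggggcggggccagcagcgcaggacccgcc
MLX (chr17:42567038-42567067, plus strand): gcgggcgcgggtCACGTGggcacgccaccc
ODC1 (chr2:10448013-10448088, minus strand): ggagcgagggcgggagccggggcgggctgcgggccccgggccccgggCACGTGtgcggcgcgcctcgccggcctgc
HSPD1 (chr2:197500345-197500374, minus strand): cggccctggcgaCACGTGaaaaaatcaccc
UNG (chr12:109098113-109098142, plus strand): ccgcgaaaagacCACGTGgggacgcggtgg
PRMT3 (chr11:20387517-20387546, plus strand): ccgcccccacctCACGTGacccgcacggcg
The match began 238, 193 and 50 bases before the annotated start of MXD4, MNT and MLX, and 29, 88, 47 and 187 bases before that of ODC1, HSPD1, UNG and PRMT3. UNG holds 2 matches, of which 1 is shown. A match describes the letters in these windows and is not a measured binding site.

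MYC RNA did not follow the groups. The gene (ENSG00000136997) lies on chromosome 8 from 127735434 to 127741434, plus strand (all such positions are GRCh38). MYC read 30.6, 5.02 and 4.04 FPKM in siEIF4G2 replicates 1, 2 and 3 and 12.8, 13.6 and 2.70 FPKM in siNC replicates 1, 2 and 3. The highest value of all was thus in siEIF4G2 replicate 1 and the lowest in siNC replicate 3, and the ranges of the groups overlapped. The means were 13.2 ± 15.04 and 9.69 ± 6.06 FPKM (SD, n = 3), with a log2 fold change of 0.41 and a 95% confidence interval from -1.88 to 2.70 (edgeR adjusted p = 0.77). That interval excludes neither a large fall nor a large rise. Without siEIF4G2 replicate 1 the log2 fold change was -1.11 (edgeR adjusted p = 0.300), and without siNC replicate 3 it was -0.026 (edgeR adjusted p = 0.987).

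The spread of MYC within groups was far wider than counting error. MYC rested on 1053 to 12244 estimated counts per library, and at 1053 counts the counting error is 3.08%. Its highest value was 7.56 times its lowest within siEIF4G2 and 5.03 times within siNC. Over the 9807 tested genes with a mean of at least 2 FPKM, the median of this ratio was 1.13 in siEIF4G2 and 1.12 in siNC, and 19 genes, MYC among them, were at least as wide as MYC in both groups. Of those 19 genes, 15 had an annotated interval that overlapped another counted gene, against 53.8% of the 9807. The interval of MYC overlapped none. PVT1, a noncoding RNA gene next to MYC, did not share its spread: it read 0.743, 0.719 and 0.710 FPKM in siEIF4G2 and 0.936, 1.09 and 0.968 FPKM in siNC. PVT1 was 1.40-fold lower after silencing (log2 fold change -0.49, SE 0.07; edgeR adjusted p = 0.00473), with groups that did not overlap. CASC11, the other neighbour on the list, was under the filter.

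MAX, the shared partner, was high in only some of the silenced libraries. The gene (ENSG00000125952) lies on chromosome 14 from 65006174 to 65102695, minus strand. Its level was 7.80, 3.11 and 7.33 FPKM in siEIF4G2 replicates 1, 2 and 3, against 3.66, 3.54 and 3.83 FPKM in siNC replicates 1, 2 and 3. The siNC values lay close together, and siEIF4G2 replicate 2 lay below all of them while replicates 1 and 3 lay above. The log2 fold change was 0.69 with an interval from -0.09 to 1.47 (edgeR adjusted p = 0.149), and it did not pass. Without siEIF4G2 replicate 2 it was 0.9996 (edgeR adjusted p = 0.00183). Of the 9807 genes, 2.87% had a ratio of highest to lowest in siEIF4G2 at least as large as that of MAX, 2.51. The interval of MAX overlaps those of FNTB and CHURC1-FNTB on the other strand, with 0 shared exon bases in GENCODE release 29, and FNTB read 4.51 to 4.77 FPKM in siEIF4G2 and 4.77 to 5.48 FPKM in siNC.

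**Figure D1:**
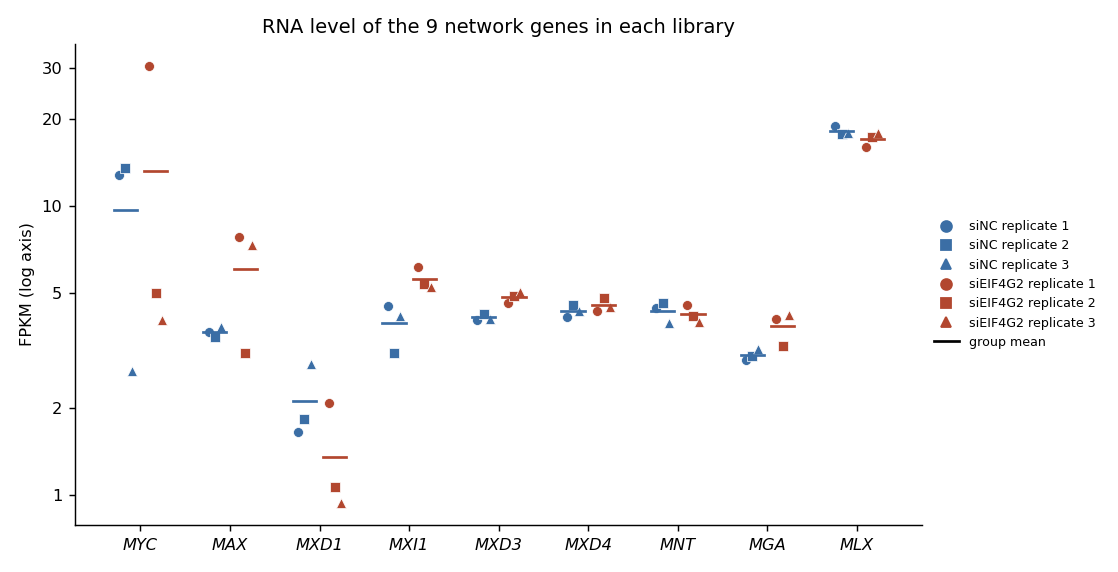
FPKM on a log axis for each of the 9 network genes, with 1 point per library (marker shape gives the replicate number, blue siNC, red siEIF4G2) and a line at each group mean. MYC spans 2.70 to 30.6 FPKM with overlapping groups, while MXD3, MXI1 and MGA have all 3 siEIF4G2 values above all 3 siNC values.

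Of the 9 members, 1 rose by the edgeR test at an adjusted p of 0.05, MXD3, and 0 fell, where 15.9% of all genes tested rose and 17.6% fell. At an unadjusted p of 0.05, 3 members were higher, MXD3, MXI1 and MGA, and 0 were lower, where 22.1% of all genes tested were higher and 22.9% lower. The same 3 had groups that did not overlap, all higher in siEIF4G2, where 27.2% of all genes tested lay wholly higher and 23.8% wholly lower. MXI1 and MGA missed the threshold narrowly, and which of the 3 passed depended on the test. DESeq2 called all 3 and none lower (background 18.7% higher and 20.2% lower), as did edgeR with a stricter filter of 1 FPKM (17.7%) and with counts summed over rows that share a symbol (16.1%). Limma on log2(FPKM + 1) called MXD3 and MXI1 (17.6%). The median log2 fold change of the 9 members was 0.21, beside 0.0075 over all genes tested.

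Among the MAX-binding repressors, MXI1 had the largest of the differences with groups that did not overlap. MXI1 (ENSG00000119950, chromosome 10 from 110207605 to 110287365, plus strand) encodes a repressor named for its interaction with MAX. It read 6.18, 5.40 and 5.25 FPKM in siEIF4G2 replicates 1, 2 and 3 and 4.52, 3.11 and 4.17 FPKM in siNC replicates 1, 2 and 3. Every silenced library lay above every control library, although siNC replicate 2 stood below the other controls. MXI1 was 1.40-fold higher, with a log2 fold change of 0.48 (SE 0.15, interval 0.12 to 0.85; edgeR adjusted p = 0.0512), which did not pass. For MXI1 by itself the two-sided exact permutation p was 0.1, and no design of 3 libraries against 3 can go lower.

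MXD3, an MXD repressor expressed in dividing cells, was the member that passed, by a small amount. It lies on chromosome 5 from 177301461 to 177311895, minus strand (ENSG00000213347). The level was 4.62, 4.89 and 5.06 FPKM in siEIF4G2 replicates 1, 2 and 3, against 4.05, 4.25 and 4.06 FPKM in siNC replicates 1, 2 and 3. Both groups were tight and did not overlap, and MXD3 was 1.16-fold higher (log2 fold change 0.21, SE 0.06; edgeR adjusted p = 0.0484). The call was lost in 7 of 14 alternatives, with adjusted p up to 0.126. Its count is uncertain, because of its 5154 exon bases in GENCODE release 29, 22.5% are shared with PRELID1 on the other strand and 18.0% with RAB24 on the same strand, and whether strand was used in counting is unknown. PRELID1 read 73.01, 42.5 and 70.4 FPKM in siEIF4G2 replicates 1, 2 and 3 and 56.9, 38.97 and 57.8 FPKM in siNC. It was lowest in replicate 2 of each group, whereas MXD3 was lowest in replicate 1 of each group. What shared reads add to the MXD3 count was not tested. The log2 fold change of PRELID1 was 0.24, in the same direction as MXD3 (edgeR adjusted p = 0.479). RAB24 went the other way, from 7.53 to 8.24 FPKM in siNC to 5.30 to 6.54 FPKM in siEIF4G2 (log2 fold change -0.44; edgeR adjusted p = 0.0218).

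MXD1, the repressor first described as MAD1 and induced when cells differentiate, had the lowest mean FPKM of the network in both groups. MXD1 (ENSG00000059728, chromosome 2 from 69897688 to 69942942, plus strand) read 2.08, 1.07 and 0.940 FPKM in siEIF4G2 replicates 1, 2 and 3 and 1.66, 1.83 and 2.85 FPKM in siNC replicates 1, 2 and 3. Both silenced replicates 2 and 3 lay under every control, but replicate 1 lay among the controls. The log2 fold change was -0.66 with an interval from -1.53 to 0.21 (edgeR adjusted p = 0.204), and without siEIF4G2 replicate 1 it was -1.09 (edgeR adjusted p = 0.0423). Of the exon bases of MXD1, 3.73% are shared with SNRNP27, a spliceosome gene on the same strand. SNRNP27 was 2.47-fold lower after silencing (edgeR adjusted p = 0.00417), and like MXD1 it was highest in siNC replicate 3, at 17.4 FPKM.

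The group means of MXD4 and of MNT differed by less than the range of values within each group. MXD4 (ENSG00000123933, chromosome 4 from 2247432 to 2262109, minus strand), the remaining MXD repressor, read 4.35, 4.81 and 4.47 FPKM in siEIF4G2 replicates 1, 2 and 3 and 4.14, 4.53 and 4.33 FPKM in siNC replicates 1, 2 and 3. MNT (ENSG00000070444, chromosome 17 from 2384073 to 2401104, minus strand), a larger repressor found in most cell types, read 4.54, 4.16 and 3.98 FPKM and 4.44, 4.63 and 3.95 FPKM in the same order. The groups of both genes overlapped. The intervals of the log2 fold change were -0.13 to 0.22 for MXD4 and -0.27 to 0.14 for MNT (edgeR adjusted p = 0.692 and 0.597).

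MGA, a very large protein that also carries a T-box domain, was higher in each silenced library. It lies on chromosome 15 from 41621224 to 41773081, plus strand (ENSG00000174197), and read 4.09, 3.27 and 4.22 FPKM in siEIF4G2 replicates 1, 2 and 3 and 2.94, 3.02 and 3.21 FPKM in siNC replicates 1, 2 and 3. The gap between the groups was narrow, since siEIF4G2 replicate 2 lay just above siNC replicate 3. MGA was 1.24-fold higher, with a log2 fold change of 0.31 (SE 0.09, interval 0.08 to 0.54; edgeR adjusted p = 0.0507), which did not pass. Without siEIF4G2 replicate 2 it was 0.40 (edgeR adjusted p = 0.00807). That library was the lowest of the silenced group for both MGA and MAX.

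MLX, the partner of MondoA and ChREBP, had the highest mean level of the network in both groups. It lies on chromosome 17 from 42567068 to 42573239, plus strand (ENSG00000108788). Its level was 16.04, 17.4 and 17.97 FPKM in siEIF4G2 replicates 1, 2 and 3 and 18.9, 17.7 and 17.9 FPKM in siNC replicates 1, 2 and 3. The groups overlapped, and the log2 fold change was -0.11 with an interval from -0.26 to 0.04 (edgeR adjusted p = 0.217). Of its exon bases, 18.1% are shared with PSMC3IP on the other strand, which read 7.46 to 7.99 FPKM in siEIF4G2 and 6.65 to 7.60 FPKM in siNC.

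**Figure D2:**
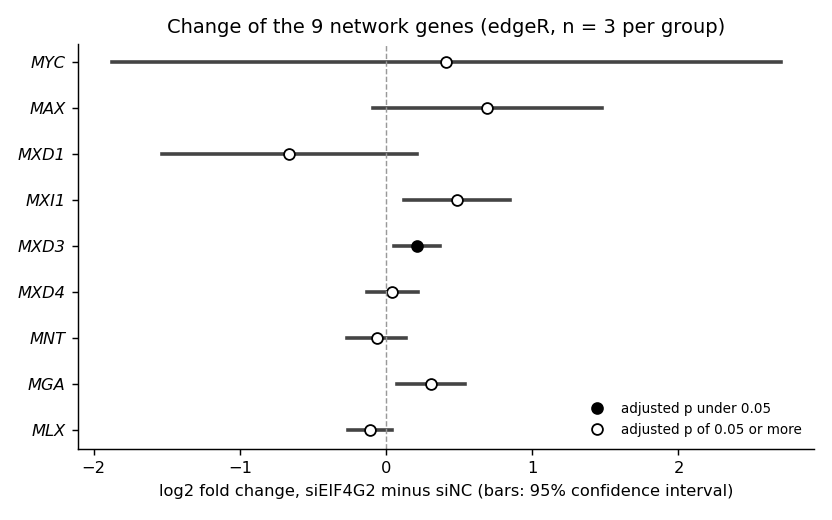
Log2 fold change of each network gene, siEIF4G2 minus siNC, from edgeR with its 95% confidence interval (3 libraries per group; filled point, adjusted p under 0.05). The interval of MYC runs from -1.88 to 2.70, while those of MXD3, MXI1 and MGA lie above 0 and those of MXD4, MNT and MLX are short and include 0.

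By mean FPKM in siNC the order was MLX, MYC, MNT, MXD4, MXD3, MXI1, MAX, MGA and MXD1. This order depends on the length used for each gene. In siNC replicate 1, MGA had 4309 counts at 2.94 FPKM, and MNT had 3210 counts at 4.44 FPKM. MLX stood apart from all other members there, at 17.7 to 18.9 FPKM. MYC ranged from 2.70 FPKM in siNC replicate 3, the lowest of the network in that library, to 13.6 FPKM, above everything but MLX. The members from MNT to MXI1 had overlapping ranges between neighbours, and MAX at 3.54 to 3.83 FPKM lay within the range of MXI1. MXD1 had the lowest mean, at 1.66 to 2.85 FPKM, and did not overlap MGA, but the lowest value of MYC fell within its range. In siEIF4G2 the order by median kept MLX first and MXD1 last.

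The share of MYC against its repressors also varied widely between replicates. The summed level of MXD1, MXD3, MXD4, MXI1 and MNT was 20.6 ± 1.06 FPKM in siEIF4G2 and 18.8 ± 0.498 FPKM in siNC. MYC made up 58.4%, 19.8% and 17.03% of the sum of MYC and these repressors in siEIF4G2 replicates 1, 2 and 3, and 40.5%, 42.5% and 12.2% in siNC replicates 1, 2 and 3. The means were 31.8% ± 23.1 and 31.7% ± 16.9 (SD, n = 3). MYC read 3.92, 1.61 and 0.552 times the FPKM of MAX in siEIF4G2, and 3.50, 3.84 and 0.705 times in siNC. These shares and ratios are of RNA and depend on the length used for each gene, and protein was not measured.

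The other relatives in the network were mostly low. Of MYCN, MYCL, MLXIP and MLXIPL, 2 passed the filter. MYCL, a MYC paralog, read 0.615, 0.555 and 0.516 FPKM in siEIF4G2 and 0.340, 0.390 and 0.319 FPKM in siNC (log2 fold change 0.65, SE 0.14; edgeR adjusted p = 0.0170). Its siNC values were all under the 0.5 FPKM filter, so it entered the test through the group where it was high. MLXIP, which encodes MondoA, read 4.88 to 5.24 FPKM in siEIF4G2 and 4.33 to 4.71 FPKM in siNC (edgeR adjusted p = 0.149). MYCN stayed at or under 0.137 FPKM, and MLXIPL read 0.190 to 0.223 FPKM in siEIF4G2 and 0.339 to 0.443 FPKM in siNC without being tested.

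Among genes for proteins that work with MYC, the share that rose was near that of all genes. Of 15 tested cofactors, 3 rose and 0 fell by edgeR, beside 15.9% and 17.6% of all genes tested, with the same counts by DESeq2 and at an unadjusted p of 0.05, and the median log2 fold change was 0.10. ACTL6A, an actin-like subunit of chromatin remodelling and acetyltransferase complexes, went from 16.5 ± 0.822 to 24.8 ± 0.888 FPKM, 1.48-fold higher (edgeR adjusted p = 0.00141). WDR5, which helps to anchor MYC on chromatin, was 1.32-fold higher, and RUVBL1, an ATPase of the same complexes, 1.16-fold higher (edgeR adjusted p = 0.00398 and 0.0377). SMARCB1, which had the next smallest p, read 3.53 to 4.78 FPKM in siEIF4G2 and 2.70 to 3.98 FPKM in siNC.

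Of 17 tested genes that act on the stability of MYC protein, 6 (35.3%) rose and 1 (5.88%) fell, beside 15.9% and 17.6% of all genes tested, with a median log2 fold change of 0.12. PPP2R5A, a regulatory subunit of the phosphatase PP2A, went from 10.9 ± 0.139 to 14.98 ± 0.566 FPKM, 1.35-fold higher. CIP2A, an inhibitor of PP2A, and SKP2, a ubiquitin ligase subunit that can target MYC, were each 1.40-fold higher. The 1 fall was of USP28, a deubiquitinase that opposes FBXW7 on MYC, which went from 8.14 ± 0.690 to 5.56 ± 0.373 FPKM, 1.49-fold lower. These 4 had edgeR adjusted p between 0.00151 and 0.00398. Genes described as removing MYC protein and genes described as sparing it were thus both among those that rose.

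The corepressor that the MXD proteins and MNT recruit showed 5 rises (31.2%) and 0 falls among 16 tested genes, beside 15.9% and 17.6% of all genes tested. Counts were the same by DESeq2 (18.7% and 20.2% of all genes) and at an unadjusted p of 0.05 (22.1% and 22.9%), with a median log2 fold change of 0.07. SAP30, a subunit of the SIN3 complex, went from 21.4 ± 0.482 to 34.1 ± 0.491 FPKM, 1.57-fold higher (edgeR adjusted p = 0.000608). ING2, a reader of methylated histone H3 in that complex, was 1.51-fold higher, BRMS1L 1.297-fold higher and the scaffold SIN3A 1.19-fold higher, with edgeR adjusted p between 0.00789 and 0.0232. SIN3B and HDAC1 had log2 fold changes of -0.09 and -0.016 and did not pass.

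Of 12 tested partners of MGA in PRC1.6, 5 (41.7%) rose and 1 (8.33%) fell, beside 15.9% and 17.6% of all genes tested, with a median log2 fold change of 0.16, where WDR5, HDAC1 and HDAC2 also belong to lists above. TFDP1, the dimer partner of E2F factors, went from 41.5 ± 0.422 to 66.6 ± 1.40 FPKM, 1.57-fold higher (edgeR adjusted p = 0.000335). RNF2, the ubiquitin ligase of polycomb complexes, and RYBP, its binding partner, were 1.40-fold and 1.33-fold higher (edgeR adjusted p = 0.0196 and 0.00535). The 1 fall was of PCGF6, the subunit that defines this complex, 1.46-fold lower (log2 fold change -0.54, SE 0.15; edgeR adjusted p = 0.0382). It was named after its value was seen.

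Genes that MYC is known to activate more often rose than fell in siEIF4G2. Of 63 genes on this list, which did not include MYC, all were tested, 34 rose, 2 fell and 27 did not pass, shares of 53.97% higher and 3.17% lower beside 15.9% and 17.6% of all genes tested. The median log2 fold change was 0.26, beside 0.0075 over all genes. The groups did not overlap for 45 higher and 3 lower, where 27.2% of all genes tested lay wholly higher and 23.8% wholly lower. The list holds ribosome assembly genes, already known from these data to be higher, so the count is no independent evidence on MYC.

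The genes with the smallest p on that list were ODC1, PLK4, NCL and HSPD1. ODC1, ornithine decarboxylase, the first enzyme of polyamine synthesis, read 38.6, 40.6 and 40.8 FPKM in siEIF4G2 replicates 1, 2 and 3 and 19.8, 20.6 and 21.8 FPKM in siNC replicates 1, 2 and 3, 1.89-fold higher. HSPD1, the mitochondrial chaperonin, read 152, 149.7 and 149.6 FPKM against 85.2, 78.2 and 87.97 FPKM, 1.76-fold higher. PLK4, the kinase of centriole duplication, was 1.83-fold higher, and NCL, nucleolin, 1.46-fold higher. All 4 had an edgeR adjusted p between 0.000359 and 0.000389, and for each the silenced libraries lay together above the controls. The 2 that fell were TFB2M, a mitochondrial transcription factor, 1.52-fold lower, and TMEM97, a sterol-regulated membrane protein, 1.63-fold lower (edgeR adjusted p = 0.00474 and 0.0345).

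The level of these genes in each library is set beside MYC. Relative to the siNC mean, the median log2 CPM shift of the 63 genes was 0.285, 0.273 and 0.254 in siEIF4G2 replicates 1, 2 and 3, where MYC read 30.6, 5.02 and 4.04 FPKM. It was 0.0016, -0.0022 and 0.027 in siNC replicates 1, 2 and 3, where MYC read 12.8, 13.6 and 2.70 FPKM. Within siEIF4G2 the shifts followed the order of MYC over a narrow span, and within siNC they ran in the reverse order. The summed FPKM of the 63 genes was 2430, 2484 and 2438 in siEIF4G2 and 1956, 1908 and 1989 in siNC. In each group that sum was lowest in the library with the most MYC. For 12 tested genes that MYC is known to repress, the median shift was -0.242, -0.294 and -0.305 in siEIF4G2. It was 0.0038, -0.016 and -0.013 in siNC. A median over 63 genes varies less between libraries than a single gene does, and all 6 libraries enter this list and the MYC comparison, so the values are set side by side with no test.

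**Figure D3:**
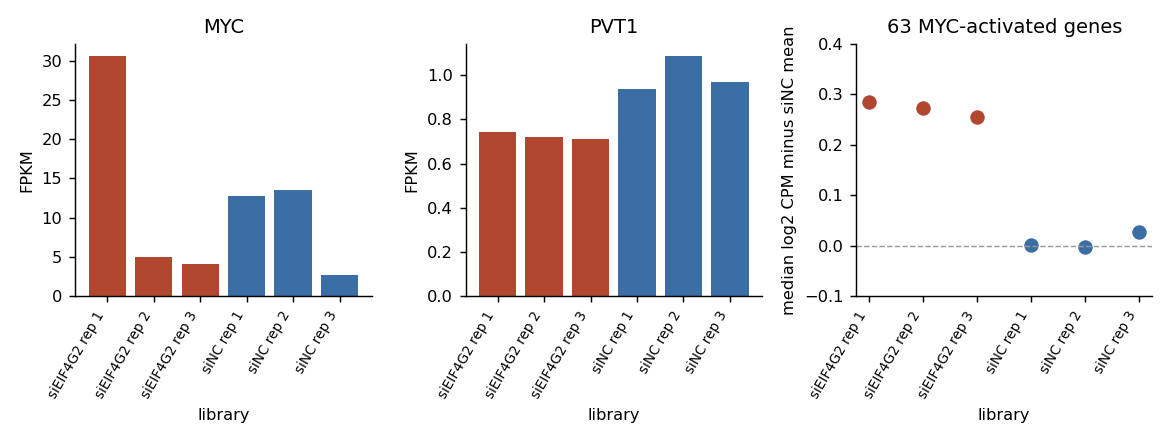
By library (red siEIF4G2, blue siNC), the FPKM of MYC and of PVT1 as bars from 0, and the median over 63 MYC-activated genes of log2 CPM minus the siNC mean as points. MYC varies from 2.70 to 30.6 FPKM across libraries of both groups, and the median of the MYC-activated genes sits at 0.254 to 0.285 in every siEIF4G2 library.

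Many promoters of this list hold the E-box letters. Of 53 tested genes of the list matched in the RefSeq table, 29 (54.7%) had CACGTG in a 300-base window around a start, against 12.9% of the 9375 tested genes matched. Of the 29 genes with the letters, such as those printed above, 17 rose and 0 fell. Of the 24 without them, 12 rose and 2 fell. Over all tested genes matched, 17.4% of those with the letters rose and 17.5% fell, and 16.8% of those without rose and 19.2% fell. The median log2 fold changes of the list with and without the letters were 0.28 and 0.24, beside -0.011 and -0.013 over all tested genes matched.

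Of 12 tested genes that MYC is known to repress, 4 fell and 2 rose, 33.3% and 16.7%, beside 17.6% and 15.9% of all genes tested, with a median log2 fold change of -0.20. GADD45A, a growth arrest gene, went from 8.91 ± 0.473 to 5.43 ± 0.238 FPKM, 1.67-fold lower. PDGFRB, a growth factor receptor that is also a fibroblast marker, was 2.29-fold lower, CDKN1C, an inhibitor of cyclin-dependent kinases, 1.55-fold lower, and CEBPA, a transcription factor, 1.41-fold lower. The 2 that rose were CDKN1B, another kinase inhibitor, 1.298-fold higher, and THBS1, thrombospondin, 1.21-fold higher. EdgeR adjusted p for these 6 genes lay between 0.00188 and 0.0308.

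**Figure D4:**
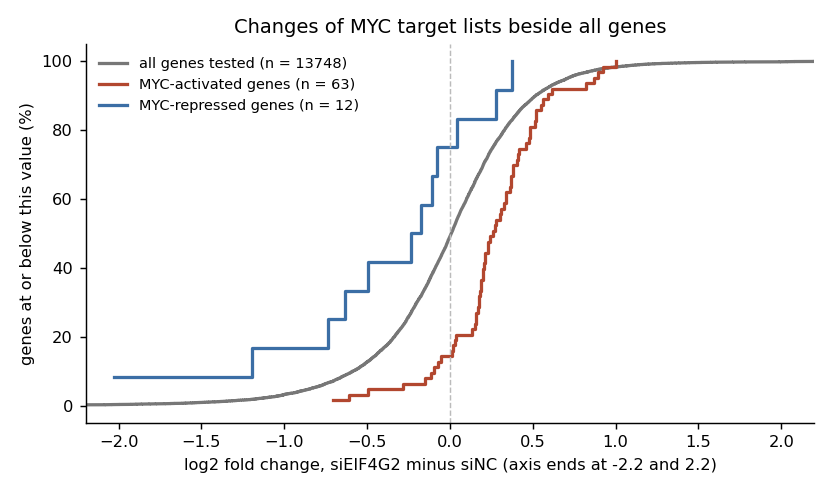
Cumulative share of genes (percent) by log2 fold change, siEIF4G2 minus siNC, for all 13748 genes tested, the 63 MYC-activated genes and the 12 tested MYC-repressed genes. The curve of the activated genes lies to the right of that of all genes around its median of 0.26, and that of the repressed genes to the left around -0.20.

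Of 6 tested targets of MondoA and ChREBP, which bind with MLX, 1 (16.7%) rose and 2 (33.3%) fell, beside 15.9% and 17.6% of all genes tested. TXNIP, the best known MondoA target, read 48.9 to 50.2 FPKM in siEIF4G2 and 41.99 to 48.0 FPKM in siNC (edgeR adjusted p = 0.240). ACLY and FASN, enzymes of fatty acid synthesis, were 1.25-fold and 1.33-fold lower, and ACACA, of the same pathway, 1.15-fold higher (edgeR adjusted p = 0.00259, 0.00289 and 0.0152).

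Among the genes searched, those most like MYC over the 6 libraries, by Pearson correlation of log2(FPKM + 1), were GAS6, KLHL28 and SRRM2. Their r was 0.977, 0.974 and 0.970. GAS6 read only 3.07 to 3.49 FPKM and KLHL28 0.885 to 1.16 FPKM over the 6 libraries, where MYC read 2.70 to 30.6 FPKM. A high r here therefore does not mean a spread as wide as that of MYC. SRRM2, a splicing cofactor, read 31.02, 16.5 and 18.9 FPKM in siEIF4G2 and 23.1, 23.8 and 15.8 FPKM in siNC, and so was highest and lowest in the same libraries as MYC. Those most like MAX were SUSD5, ZNF431 and SPEN, with r of 0.994, 0.993 and 0.993. SPEN, a transcriptional corepressor, read 7.22, 5.90 and 6.97 FPKM in siEIF4G2 and 6.19, 6.12 and 6.13 FPKM in siNC. The search covered tested protein-coding genes without clone or locus names. It also left out every symbol ending in P and digits, a pseudogene pattern that some coding genes, such as SKP2, share. The genes named are the closest in that search over only 6 libraries that share groups, and are given as a description.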

How the data were processed

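Poly(A) RNA of 6 libraries was sequenced as paired ends, per the labels' protocols. HISAT2 2.0 and StringTie 1.3.0 appear, with no role stated, in the submitters' processing notes. Their genome build, annotation and strand setting, not given in the sources used here, remain unknown. The authors deposited 1 table of 60612 genes with FPKM and a whole-number estimated count per library, and these rounded estimated counts were tested as they stand. Of the symbols, 49060 had an identifier in GENCODE release 29 (GRCh38), and 99.96% of those intervals overlapped, so coordinates are given as GRCh38.

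Genes at 0.5 FPKM or more in 3 or more libraries were tested with edgeR 4.0.16 (quasi-likelihood, TMM, group only; R 4.3.3), with two-sided p adjusted by Benjamini-Hochberg over all 13748 genes. The edgeR step was tested on simulated data. SE was derived from the log2 fold change and its F statistic. CPM shifts used a pseudocount of 0.05. Exact permutation tests used scipy 1.17.1. Alternatives used DESeq2 1.42.0 and limma 3.58.1. Named were all members, EIF4G2, up to 4 genes with the smallest p per list, and the 3 genes most like MYC and MAX. Genes that a sentence singles out beyond this were chosen after their values were seen. The members and lists were chosen with earlier results of these data known. Same-numbered libraries of the 2 groups correlated by -0.0302 to 0.0404 in their deviations, so the numbers were not taken as pairs.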

Additional observations from a re-analysis of the deposited data

How the results depend on the processing

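EIF4G2 remained lower in all 14 alternatives (log2 fold change -2.50 to -2.35), and the count of MYC-activated genes that rose, 34, was 24 to 28 on leaving out 1 library, 27 with no filter on low values, 28 with the replicate number as a block and 33 to 37 otherwise. Of the members, 3 rose with DESeq2, with the filter of 1 FPKM and with summed rows, 2 with limma at either pseudocount, 0 with no filter and 0 with the replicate block, and 0 to 2 on leaving out 1 library. The 2 calls without siEIF4G2 replicate 2 were MAX and MGA. The count of members that fell was 0 to 1 on leaving out 1 library, the 1 being MXD1 without siEIF4G2 replicate 1. MYC-activated genes that fell numbered 1 with no filter, 1 with the replicate block and 1 to 2 on leaving out 1 library. On leaving out 1 library the log2 fold change of MYC ran from -1.11 to 0.84, below 0 when siEIF4G2 replicate 1 (-1.11) or siNC replicate 3 (-0.026) was missing, and that of MXD4 from -0.016 (siEIF4G2 replicate 2 missing) to 0.083. The difference between groups in the share of MYC, 0.014 percentage points, was -1.19 without MNT among the repressors and -13.3 to 7.37 on leaving out 1 library. The cause of these shifts was not tested.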

Other observations

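CDKN1A, the cell cycle inhibitor p21 and a classic gene repressed by MYC, was another with a wide spread within groups, and it was singled out after its values were seen. It read 11.8, 46.8 and 43.3 FPKM in siEIF4G2 replicates 1, 2 and 3 and 185, 45.6 and 178 FPKM in siNC replicates 1, 2 and 3. Its lowest value was in the library with the most MYC RNA, siEIF4G2 replicate 1, whereas siNC replicates 1 and 2, which were alike in MYC, differed in CDKN1A. The log2 fold change was -2.03 with an interval from -3.75 to -0.31 (edgeR adjusted p = 0.0726).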
